A study of Mus musculus with 12 samples.

Results

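Gene expression in cells labelled MPP (multipotent progenitor) from mice carrying a Tet2 mutant allele (Mut) was compared with that in the same cells from wild-type (WT) mice. The comparison rests on 4 RNA-seq libraries of the 12 in the series, 2 for each genotype, and every gene of the deposited count table that passed a filter on low counts was tested, 12947 in all. The mice of every group were of a mixed 129/C57/B6 background and 10 weeks old, and no treatment is named for any group. Marrow of 2 mice per genotype was pooled and each pool gave 2 technical replicate libraries, so errors and p values here cover technical variation only. The spread among mice was not measured. The RNA was amplified and carried spike-ins, per the labels. Tet2 knockout (KO) MPP cells, also 2 libraries, shared the estimate of the spread, and LSK cells (lineage-negative, Sca-1 and Kit positive) of the WT and Mut genotypes, 2 libraries each, served to ask where the Mut effect differed between populations. The title of the series sets the study in functions of Tet2 outside catalysis. Neither the altered residues of the Mut protein, the design of the KO allele nor the MPP sorting gates are stated in the labels. The titles of the same samples call the cells Lin.

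Tet2 oxidises methylated cytosine in DNA and also binds chromatin and transcription factors as part of larger complexes. In blood formation, multipotent progenitors give rise to granulocyte-monocyte progenitors, which first make the enzymes of the primary (azurophil) granules, to eosinophil, basophil and mast cell precursors with granule proteins of their own, and to erythroid and megakaryocyte precursors. Each of these programmes is carried by a small set of very abundant messenger RNAs, so a bulk library reads both how many cells of each kind it holds and how much each cell expresses.

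Gene counts ran from 10794823 to 23532847 in the 4 libraries, and a count of 0 allows up to 0.128 to 0.283 CPM. CPM are counts per 1000000, with library sizes scaled by the trimmed mean of M values (TMM). Both WT libraries correlated at r = 0.924 across genes and both Mut libraries at 0.907, and libraries of different genotypes at 0.904 to 0.909. Tet2 itself (chromosome 3, 133463679 to 133545139 of GRCm38), the gene that names the genotypes, was at 37.8 and 27.8 CPM in WT and 38.0 and 35.4 CPM in Mut, and the groups overlapped (log2 0.16, SE 0.267, adjusted p = 0.920), with a difference of -0.025 without WT replicate 2. Its relatives Tet1 (log2 0.30, adjusted p = 0.924) and Tet3 (log2 -0.31, adjusted p = 0.789) did not pass the threshold either, so the counts do not check the labels, and a mutant allele can still make a transcript. Ly6a and Flt3, genes of the stem and progenitor gates, were lower than in the LSK libraries: Ly6a, which encodes Sca-1, was at 17.4 ± 0.193 CPM in MPP WT and 20.3 ± 0.386 in MPP Mut against 75.8 ± 24.7 in LSK WT and 123 ± 2.90 in LSK Mut (SD, n = 2). Flt3, the receptor of lymphoid-primed progenitors, was at 92.9 ± 4.52 CPM in MPP WT and 117 ± 22.6 in MPP Mut against 908 ± 63.6 in LSK WT. Slamf1 averaged 4.02 ± 2.10 and 4.36 ± 6.17 CPM in MPP WT and MPP Mut, with 0 counts in Mut replicate 2, against 28.1 and 41.9 CPM in the LSK WT libraries and 4.07 ± 2.04 in LSK Mut. Spike-in RNAs took 3.35% ± 0.259 of the counts in MPP WT and 5.02% ± 0.185 in MPP Mut (SD, n = 2). A single spike-in, ERCC-00130, made up 17.2% ± 0.529 of spike-in counts in WT and 3.62% ± 0.0212 in Mut. Its mean share was 3.75% in MPP KO, 18.6% in LSK WT, 3.42% in LSK Mut and 2.67% in LSK KO. The make-up of the spike-ins thus differed between WT and the other genotypes in both populations. In comparisons with WT, genotype and any difference in preparation behind this cannot be told apart.

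Between Mut and WT, 29 genes were called at an adjusted p below 0.05 (edgeR's quasi-likelihood test, Benjamini-Hochberg adjustment over 12947 genes), or 0.224% of those tested. At an unadjusted p below 0.05 there were 1262 (9.75%). In Mut, 17 rose (0.131%) and 12 fell (0.0927%). Enzymes of neutrophil primary granules, neutrophil alarmins and eosinophil granule proteins were among the genes that fell, while basophil genes, red cell genes, early response genes and the chaperone Hspa8 were among those that rose. The folds between the group means ran from 1.13 for Mpo to 15.9 for Gzma. In all 29 genes both Mut libraries lay on the same side of both WT libraries. The calls were made from these same libraries, so this separation adds no support to them. Of all genes tested, 19.7% were so separated on the higher side and 19.6% on the lower side. Leaving out each library in turn gave 15 to 28 called genes, and 13 of the 29 stayed below the threshold whichever of the 6 libraries was left out: Camp, Egr1, Elane, Epx, Fos, Gas5, Gzma, Hp, Lars2, Prg2, Prtn3, S100a8 and S100a9. Without Mut replicate 1 the count of called genes was 15 and without Mut replicate 2 it was 19. With the spread taken from all 12 libraries 9 of the 29 kept their call. With scaling by the spike-in totals the median of all genes moved to -0.59 on the log2 scale, 16 genes were called higher and 2281 lower, and Car2, Fos, H3f3b, Lars2 and Prss34 changed sign. All directions below are relative to the bulk of the genes, as TMM scales them. The gene lists below were drawn up with earlier results of these data known. Their shares beside those of all genes are thus descriptions and no test.

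**Figure D1:**
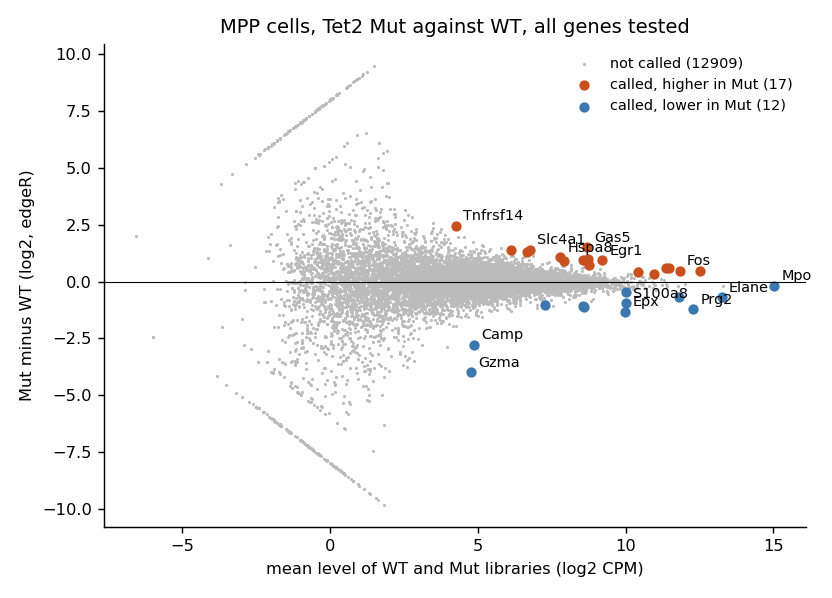
Difference between Mut and WT (log2, edgeR) against the mean level of the WT and Mut libraries (log2 CPM) for each gene tested, with the 17 genes called higher in orange and the 12 called lower in blue. The diagonal bands at the left are genes with 0 counts in a whole group, whose fitted differences depend on the prior count, and 9 genes at 0 in all 4 libraries are not drawn. With spike-in scaling Car2, Fos, H3f3b, Lars2 and Prss34 change sign.

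**Figure D2:**
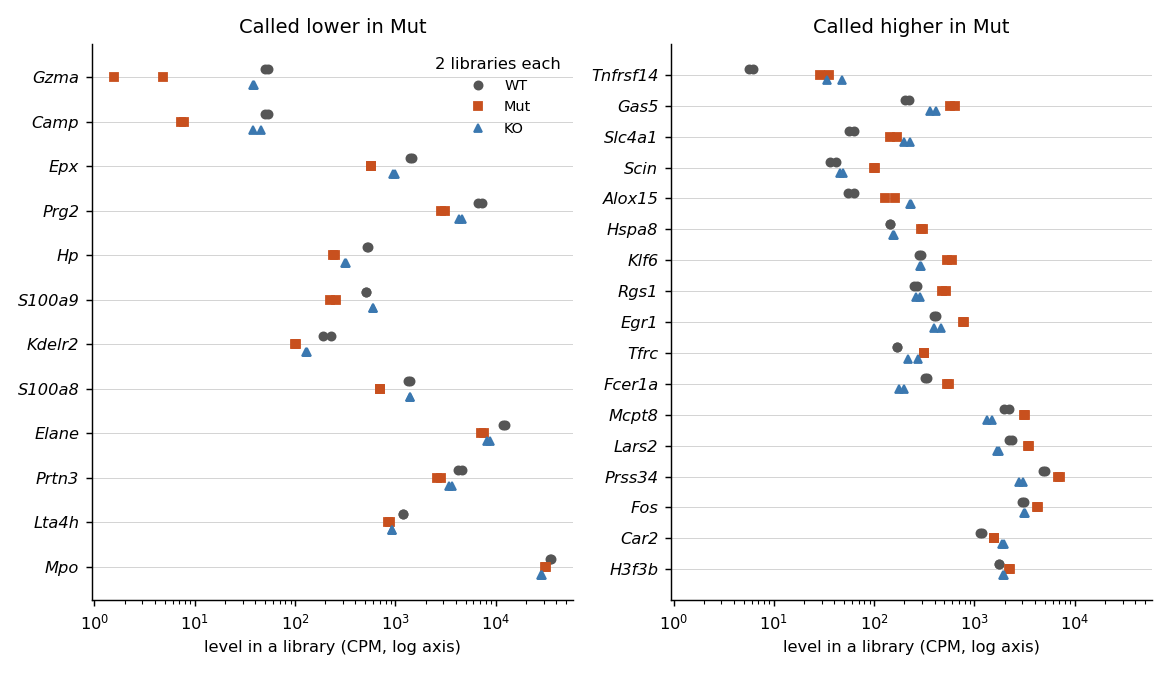
Level of the 29 called genes in each MPP library (CPM, log axis), with WT as grey circles, Mut as orange squares and KO as blue triangles, 2 libraries each; rows lie in order of the fitted difference. In every row both Mut libraries lie on one side of both WT libraries; Elane, for example, is at 11730 and 12311 CPM in the WT libraries against 7642 and 7185 CPM in the Mut libraries. With spike-in scaling Car2, Fos, H3f3b, Lars2 and Prss34 change sign.

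The genes of granulocyte-monocyte progenitors that passed the test all fell in Mut. Of the 27 listed genes, all tested, 4 fell (0.0927% of all genes) and none rose (0.131%): Elane, Prtn3, Mpo and Hp. Elane, the neutrophil elastase (chromosome 10, 79886247 to 79888215), was at 11730 and 12311 CPM in the WT libraries against 7642 and 7185 CPM in the Mut libraries (log2 -0.70, SE 0.0421, adjusted p = 0.000411), a 1.62-fold difference. Prtn3, proteinase 3, which lies beside it on the chromosome (chromosome 10, 79874476 to 79883174), was at 4160 and 4643 CPM in WT and 2853 and 2617 CPM in Mut (log2 -0.69, SE 0.0641, adjusted p = 0.00520). Both proteases were clearly separated between genotypes, with the WT libraries apart by less than the gap to Mut. Mpo, the myeloperoxidase of the same granules (chromosome 11, 87793581 to 87804413), fell by far less, from 35057 and 35988 CPM in WT to 32054 and 30701 CPM in Mut (log2 -0.18, SE 0.0216, adjusted p = 0.0191). Its adjusted p rose to 0.0772 without WT replicate 2 and to 0.0746 without Mut replicate 2. Hp, the plasma haemoglobin scavenger haptoglobin that granulocyte precursors also make, was at 533 and 520.4 CPM in the WT libraries against 251 and 241 CPM in the Mut libraries (log2 -1.10, SE 0.0885, adjusted p = 0.00268).

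Most of the rest of the list lay on the same side without passing the threshold. In 23 of the 27 genes both Mut libraries lay below both WT libraries (19.6% of all genes) and in none above. At an unadjusted p below 0.05, 20 were lower (background 4.8%) and none higher. The median difference was -0.30 against -0.0027 over all genes. Since the members were chosen with earlier results of these data known, these shares do not test the list. Among the transcription factors of the lineage, Gfi1, a repressor that acts in granulocyte formation, was at 76.2 and 42.7 CPM in WT and 17.4 and 32.0 CPM in Mut (log2 -1.27, SE 0.380, adjusted p = 0.337). Cebpe, a C/EBP factor of late granulopoiesis, was at 86.0 and 88.7 CPM in WT and 46.1 and 45.6 CPM in Mut (log2 -0.93, SE 0.191, adjusted p = 0.188). Spi1, which encodes PU.1, was at 400.5 and 413 CPM in WT and 347 and 289 CPM in Mut (log2 -0.35, adjusted p = 0.408). Irf8, a factor of the monocyte branch, was at 531 and 534 CPM in WT and 450.2 and 460.2 CPM in Mut (log2 -0.23, adjusted p = 0.407). These factors showed smaller gaps than Gfi1 and Cebpe, although their libraries did not overlap either. Cebpa (-0.67) and Cebpb (-0.97), 2 further C/EBP factors, overlapped between the groups. The cytokine receptor chain Csf2ra, which binds GM-CSF, was at 173 and 141 CPM in WT and 96.3 and 90.0 CPM in Mut (log2 -0.76, SE 0.159, adjusted p = 0.188). Csf1r (0.24) and Csf2rb (0.19), the M-CSF receptor and the common beta chain, overlapped between the groups. Ctsg, the granule protease cathepsin G, was at 2650 and 3124 CPM in WT and 2391 and 2290 CPM in Mut (log2 -0.30, adjusted p = 0.249). Ly6c2, a surface protein of monocyte precursors, was at 1780 and 1779 CPM in WT and 1453 and 1443 CPM in Mut (log2 -0.30, adjusted p = 0.0906). Summed over the list, the levels came to 67392 and 70233 CPM in the WT libraries and 56726 and 54215 CPM in the Mut libraries; in bulk RNA, fewer cells of a kind and less RNA per cell cannot be told apart. With the spread taken from all 12 libraries Elane, Prtn3, Mpo and Hp lost their calls (adjusted p = 0.139, 0.342, 0.421 and 0.905), and 9 of the 27 genes were lower at an unadjusted p below 0.05.

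The windows before the start sites of 3 of the granule genes are shown because these genes moved together in the comparison, and that of Epx, an eosinophil granule gene that fell as well, for contrast. Each is the 250 bases before the RefSeq start site on GRCm38.p6, printed 5′ to 3′ on the strand of the gene (Elane chr10:79886062-79886311, plus strand; Prtn3 chr10:79879417-79879666, plus strand; Mpo chr11:87793534-87793783, plus strand; Epx chr11:87875537-87875786, minus strand). The RefSeq start sites of Elane, Prtn3 and Mpo lie downstream of the gene starts given above, which are from GENCODE. Their windows thus lie partly, and that of Prtn3 wholly, within the gene spans given above. Capitals mark GAGGAAGT, a core of the kind that PU.1 and other ETS factors bind, searched on both strands.
Elane: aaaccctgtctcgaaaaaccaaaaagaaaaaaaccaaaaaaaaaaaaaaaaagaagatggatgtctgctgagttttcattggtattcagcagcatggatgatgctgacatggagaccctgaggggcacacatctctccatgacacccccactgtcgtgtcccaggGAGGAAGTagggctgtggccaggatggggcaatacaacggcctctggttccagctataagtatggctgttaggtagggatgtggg
Prtn3: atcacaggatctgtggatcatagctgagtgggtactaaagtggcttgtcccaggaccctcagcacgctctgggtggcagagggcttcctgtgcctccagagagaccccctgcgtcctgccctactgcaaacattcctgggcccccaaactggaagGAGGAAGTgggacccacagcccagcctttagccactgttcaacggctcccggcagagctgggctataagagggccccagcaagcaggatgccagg
Mpo: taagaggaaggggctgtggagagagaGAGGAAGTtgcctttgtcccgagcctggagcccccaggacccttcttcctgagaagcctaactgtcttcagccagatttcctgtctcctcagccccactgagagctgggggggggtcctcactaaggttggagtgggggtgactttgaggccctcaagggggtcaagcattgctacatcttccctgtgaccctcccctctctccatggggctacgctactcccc
Epx: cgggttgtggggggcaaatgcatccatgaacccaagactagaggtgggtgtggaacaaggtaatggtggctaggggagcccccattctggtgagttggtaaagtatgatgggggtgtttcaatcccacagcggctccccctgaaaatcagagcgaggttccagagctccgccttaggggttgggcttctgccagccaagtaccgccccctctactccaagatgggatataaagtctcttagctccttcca
Elane, Prtn3 and Mpo each held 1 such match on the strand of the gene, 85 to 78, 95 to 88 and 224 to 217 bases before the start, and Epx held none in this window. A window was found for 20 of the 29 called genes, of which 4 (these 3 and S100a8) had the motif, against 2.44% of the 32851 windows of all genes. Here and for the motifs below, called genes count if any of their windows matched, while the share counts single windows. The 2 are thus unlike measures, and Elane and Prtn3 are neighbours on the chromosome. Whether these genes share a factor was not tested. The motif TTGCNNAA, a C/EBP core searched on both strands, was in the windows of Fcer1a and S100a9, 2 of the 20, and in 9.56% of all windows. These matches are descriptions of letters and no binding was measured.

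Genes of later neutrophil granules and of neutrophil cytosol fell in part. Of 20 listed genes, all tested, 3 fell (0.0927% of all genes) and none rose (0.131%). The 3 were the antimicrobial peptide gene Camp and the alarmin genes S100a8 and S100a9. Camp (chromosome 9, 109847379 to 109849617), which encodes the cathelicidin stored in secondary granules, was at 50.03 and 53.4 CPM in the WT libraries against 7.79 and 7.30 CPM in the Mut libraries (log2 -2.77, SE 0.275, adjusted p = 0.00657), a 6.84-fold difference. S100a8 (chromosome 3, 90668978 to 90670035) was at 1341 and 1394 CPM in WT and 698 and 707 CPM in Mut (log2 -0.96, SE 0.0572, adjusted p = 0.000411). Its dimer partner S100a9 (chromosome 3, 90692632 to 90695721) was at 507 and 514 CPM in WT and 256 and 222 CPM in Mut (log2 -1.10, SE 0.0936, adjusted p = 0.00326). All 3 stayed called whichever library was left out, but none of the 3 was called with the spread from all 12 libraries (adjusted p = 0.343, 0.619 and 0.15). Both Mut libraries lay below both WT libraries in 9 of the 20 genes (19.6% of all genes) and above in 1 (19.7% of all genes), and the median difference was -0.37. Chil3, a chitinase-like secreted protein, was at 51.2 and 53.8 CPM in WT and 20.6 and 14.8 CPM in Mut (log2 -1.56, SE 0.248, adjusted p = 0.0754). Wfdc21 was at 103 and 114 CPM in WT and 60.8 and 63.7 CPM in Mut (log2 -0.80, adjusted p = 0.197). Lysozyme, from Lyz2, was at 935 and 949 CPM in WT and 723 and 766 CPM in Mut (log2 -0.34, adjusted p = 0.188). The secondary granule genes did not move as a block: lactoferrin, from Ltf, was at 2.67 and 3.78 CPM in WT and 12.8 and 25.6 CPM in Mut (log2 2.58, SE 0.588, adjusted p = 0.203), the opposite direction to Camp, while Ngp (-0.044) and Lcn2 (0.084), 2 further proteins of these granules, overlapped between the groups. Summed over the list, the levels came to 4100 and 4161 CPM in the WT libraries and 2812 and 2863 CPM in the Mut libraries.

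The called eosinophil and basophil genes moved in opposite directions. Of the 25 genes listed for eosinophils, basophils and mast cells, 22 were tested, 2 fell (0.0927% of all genes) and 3 rose (0.131%). At an unadjusted p below 0.05, 5 were lower (4.8% of all genes) and 7 higher (4.94%). Epx, the eosinophil peroxidase (chromosome 11, 87864000 to 87875536), fell 2.52-fold from 1414 and 1473 CPM to 572 and 575 CPM (log2 -1.33, SE 0.0646, adjusted p = 0.000283). Prg2, the major basic protein of the eosinophil granule (chromosome 2, 84980461 to 84983632), was at 6597 and 7292 CPM in the WT libraries against 3151 and 2869 CPM in the Mut libraries (log2 -1.21, SE 0.0653, adjusted p = 0.000346), a 2.31-fold difference. Both kept their call in all alternatives run, Gas5 being the only other called gene that did. Prg3, a second major basic protein beside Prg2 on chromosome 2, was at 305 and 344 CPM in WT and 157 and 192 CPM in Mut (log2 -0.89, SE 0.141, adjusted p = 0.0743). The eosinophil ribonuclease gene Ear1 was at 169 and 167 CPM in WT and 103 and 105 CPM in Mut (log2 -0.69, adjusted p = 0.0904); the Ear genes are near-identical copies, so reads may be split among them. Siglecf, an eosinophil surface lectin, overlapped between the groups (-0.19), as did Il5ra, the receptor of the eosinophil growth factor interleukin 5 (-1.34). Ear10 lay the other way at very low levels, 0.0635 and 0.0945 CPM in WT and 1.06 and 1.12 CPM in Mut (log2 3.68, adjusted p = 0.511).

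On the basophil and mast cell side, Prss34, a protease of basophil granules (chromosome 17, 25298394 to 25300165), rose from 4790 and 5079 CPM in WT to 7060 and 6726 CPM in Mut (log2 0.48, SE 0.0496, adjusted p = 0.00779; -0.11 with spike-in scaling). Mcpt8, another basophil protease (chromosome 14, 56082166 to 56085273), was at 1992 and 2186 CPM in WT and 3208 and 3126 CPM in Mut (log2 0.60, SE 0.0673, adjusted p = 0.0117). Fcer1a, the chain of the high-affinity receptor that binds immunoglobulin E (chromosome 1, 173221284 to 173227214), was at 333 and 322 CPM in WT and 562 and 528 CPM in Mut (log2 0.74, SE 0.0987, adjusted p = 0.0307). Each of the 3 was higher in both Mut libraries, by 1.397 to 1.67 times. Beside them, the receptor's beta chain Ms4a2 was at 124 and 157 CPM in WT and 184 and 199 CPM in Mut (log2 0.45, adjusted p = 0.407; -0.15 with spike-in scaling). The mast cell carboxypeptidase Cpa3 was at 443 and 487 CPM in WT and 600.1 and 604 CPM in Mut (log2 0.37, adjusted p = 0.203; -0.22 with spike-in scaling). Cd200r3, a receptor of basophils and mast cells, was at 48.4 and 59.3 CPM in WT and 82.4 and 82.4 CPM in Mut (log2 0.61, adjusted p = 0.459). Gata2, the transcription factor that these cells share with stem cells, differed by 0.23 with libraries that did not overlap. Not all members rose: Hdc (-0.12) and Cma1 (-2.47) had both Mut libraries below both WT libraries, and Fcer1g (-0.068) overlapped. Of the 22 genes tested on the whole list, 10 lay above (19.7% of all genes) and 9 below (19.6%) without overlap. The basophil calls were less firm than the eosinophil ones: Prss34 lost its call without Mut replicate 1 (adjusted p = 0.0763), Mcpt8 without Mut replicate 1 (0.0989) or Mut replicate 2 (0.0716), and Fcer1a without WT replicate 1 (adjusted p = 0.103), WT replicate 2 (0.102), Mut replicate 1 (0.215) or Mut replicate 2 (0.137). With the spread from all 12 libraries the adjusted p of Prss34, Mcpt8 and Fcer1a was 0.667, 0.844 and 0.764.

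The windows of the 3 basophil genes are given for the same reason as those of the granule genes (Prss34 chr17:25298144-25298393, plus strand; Fcer1a chr1:173227230-173227479, minus strand; Mcpt8 chr14:56085198-56085447, minus strand). The window of Mcpt8 lies partly within the GENCODE gene span given above. Capitals mark AGATAA or TGATAA, the cores that GATA factors bind, searched on both strands.
Prss34: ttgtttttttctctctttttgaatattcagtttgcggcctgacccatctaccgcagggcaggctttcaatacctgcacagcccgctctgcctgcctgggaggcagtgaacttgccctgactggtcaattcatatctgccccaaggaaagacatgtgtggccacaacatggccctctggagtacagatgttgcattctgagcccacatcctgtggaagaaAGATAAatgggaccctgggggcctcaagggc
Fcer1a: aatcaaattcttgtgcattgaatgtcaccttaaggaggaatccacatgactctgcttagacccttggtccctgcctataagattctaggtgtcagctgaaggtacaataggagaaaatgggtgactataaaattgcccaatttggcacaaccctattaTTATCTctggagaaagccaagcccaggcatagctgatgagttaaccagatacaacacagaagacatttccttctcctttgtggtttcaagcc
Mcpt8: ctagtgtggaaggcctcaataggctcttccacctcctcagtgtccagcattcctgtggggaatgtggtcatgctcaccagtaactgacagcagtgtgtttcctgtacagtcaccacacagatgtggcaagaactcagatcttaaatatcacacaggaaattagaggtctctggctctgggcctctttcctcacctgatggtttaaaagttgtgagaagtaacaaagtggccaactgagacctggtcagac
Prss34 held AGATAA on its own strand, 31 to 26 bases before the start, Fcer1a held it on the opposite strand, 92 to 87 bases before the start, and Mcpt8 held neither motif in this window. One or the other was in 16.6% of all windows and in those of 3 of the 20 called genes, S100a9 being the third.

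Red cell genes that passed the test all rose in Mut. Of 40 listed erythroid genes 33 were tested, 3 rose (Slc4a1, Tfrc and Car2; 0.131% of all genes) and none fell (0.0927%). Slc4a1, the band 3 anion exchanger of the red cell membrane (chromosome 11, 102348824 to 102366203), was at 62.6 and 56.1 CPM in the WT libraries against 169.8 and 144 CPM in the Mut libraries (log2 1.402, SE 0.156, adjusted p = 0.0116), a 2.64-fold difference. Tfrc, the transferrin receptor that brings iron into erythroblasts (chromosome 16, 32608920 to 32632794), was at 168 and 168 CPM in WT and 317 and 317 CPM in Mut (log2 0.92, SE 0.130, adjusted p = 0.0414). Car2, a carbonic anhydrase, was at 1127 and 1202 CPM in WT and 1566 and 1555 CPM in Mut (log2 0.42, SE 0.0558, adjusted p = 0.0293; -0.17 with spike-in scaling). Other membrane genes lay on the same side without passing. Add2 (beta adducin) was at 33.7 and 48.4 CPM in WT and 80.4 and 85.9 CPM in Mut (log2 1.02, adjusted p = 0.197). Kel, a blood group antigen, was at 55.1 and 67.3 CPM in WT and 96.5 and 109 CPM in Mut (log2 0.75, adjusted p = 0.212). Rhag, the Rh-associated glycoprotein, was at 65.8 and 62.2 CPM in WT and 106 and 112 CPM in Mut (log2 0.77, adjusted p = 0.188). Alas2, the first enzyme of erythroid heme synthesis, was at 15.2 and 21.9 CPM in WT and 56.2 and 52.6 CPM in Mut (log2 1.55, adjusted p = 0.101). Fech, the last, was at 156 and 146 CPM in WT and 209.7 and 206 CPM in Mut (log2 0.46, adjusted p = 0.204; -0.12 with spike-in scaling).

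The erythroid transcription factors showed smaller differences. Klf1 was at 174 and 180.1 CPM in WT and 236 and 219 CPM in Mut (log2 0.37, adjusted p = 0.333; -0.22 with spike-in scaling), while Gata1 (-0.049), its cofactor Zfpm1 (-0.16) and the erythropoietin receptor Epor (0.25) overlapped between the groups. Over the 33 genes tested both Mut libraries lay above both WT libraries in 22 (19.7% of all genes) and below in 1 (19.6% of all genes). At an unadjusted p below 0.05, 18 were higher (background 4.94%) and none lower. The median was 0.32. Here too the members were chosen with earlier results of these data known, so these shares do not test the list. Summed over the list, the levels came to 5863 and 6112 CPM in the WT libraries and 7714 and 7571 CPM in the Mut libraries. Globins, the defining products of mature red cells, were almost missing: of 10 globin rows 7 were at 0 in all 4 libraries and the largest count was 16. Slc4a1 lost its call without Mut replicate 1 (adjusted p = 0.0758), Car2 without WT replicate 1 (adjusted p = 0.0974), Mut replicate 1 (0.204) or Mut replicate 2 (0.173), and Tfrc without WT replicate 1 (adjusted p = 0.163), WT replicate 2 (0.107), Mut replicate 1 (0.198) or Mut replicate 2 (0.187). With spike-in scaling 2 of the 33 genes were higher and 8 lower at an unadjusted p below 0.05. Under that scaling 4822 of all 12947 genes passed that p in either direction, with a median of -0.59. With the spread from all 12 libraries 4 of the 33 were higher at that p, and Slc4a1, Tfrc and Car2 were at an adjusted p of 0.852, 0.582 and 0.162. Megakaryocyte genes, the sister lineage, held no call among the 18 tested, with both Mut libraries above both WT libraries in 7 (19.7% of all genes) and below in 1 (19.6% of all genes) (median 0.10).

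Early response genes, which cells switch on within minutes of a stimulus or of handling, were higher in Mut in part. Of 40 listed genes 39 were tested, 3 rose (Egr1, Klf6 and Fos; 0.131% of all genes) and none fell (0.0927%). Egr1, a zinc finger factor, was at 416 and 392 CPM in the WT libraries against 766 and 784 CPM in the Mut libraries (log2 0.94, SE 0.0937, adjusted p = 0.00657), a 1.92-fold difference. Klf6, a Krüppel-like factor (chromosome 13, 5861482 to 5870394), was at 290.4 and 279 CPM in WT and 592 and 529.9 CPM in Mut (log2 0.98, SE 0.0946, adjusted p = 0.00617). Fos, a subunit of the AP-1 dimer (chromosome 12, 85473890 to 85477273), was at 2983 and 3102 CPM in WT and 4287 and 4193 CPM in Mut (log2 0.48, SE 0.0392, adjusted p = 0.00268; -0.11 with spike-in scaling). Other AP-1 genes had libraries that did not overlap without passing the threshold: Jun was at 2452 and 2125 CPM in WT and 3022 and 3393 CPM in Mut (log2 0.49, adjusted p = 0.0812; -0.095 with spike-in scaling). Fosb was at 179.6 and 193 CPM in WT and 275 and 254 CPM in Mut (log2 0.51, adjusted p = 0.194; -0.080 with spike-in scaling). The feedback phosphatase gene Dusp1 was at 1287 and 898 CPM in WT and 1474 and 1820 CPM in Mut (log2 0.59, adjusted p = 0.278). The growth inhibitor Btg2 was at 208 and 227 CPM in WT and 339 and 374 CPM in Mut (log2 0.72, adjusted p = 0.0842). Not all members shared this direction: Atf3 (-0.60), Dusp2 (-0.79), Gadd45b (-0.42) and Myc (-0.20) had both Mut libraries below both WT libraries, and Nr4a3 (-0.0025) and Egr3 (-0.018) overlapped.

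Over the 39 genes 15 lay above (19.7% of all genes) and 5 below (19.6% of all genes) without overlap. At an unadjusted p below 0.05, 9 were higher (4.94% of all genes) and 1 lower (4.8%), and the median was 0.12. With spike-in scaling 2 were higher and 14 lower at that p. All genes moved down under that scaling (median -0.59), and 4822 of 12947 passed that p in either direction. Egr1 and Fos stayed called whichever library was left out. Klf6 lost its call without Mut replicate 1 (adjusted p = 0.0524). With the spread from all 12 libraries Egr1, Fos and Klf6 all kept their calls. Handling and sorting times are not given in the labels, and their part in these differences was not tested. The window before the start of Fos (Fos chr12:85473640-85473889, plus strand) is shown with the core TGACG of cyclic AMP response elements in capitals, since Fos was called whichever library was left out.
Fos: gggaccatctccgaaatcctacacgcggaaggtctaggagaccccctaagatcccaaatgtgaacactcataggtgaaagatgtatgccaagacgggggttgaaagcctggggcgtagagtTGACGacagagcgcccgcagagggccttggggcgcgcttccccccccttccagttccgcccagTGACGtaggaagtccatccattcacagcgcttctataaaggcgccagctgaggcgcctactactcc
It held 2 matches, 129 to 125 and 66 to 62 bases before the start, both on the strand of the gene. Of the 20 called genes with a window 4 held TGACG on either strand (Fos, Gas5, H3f3b and Tfrc), against 17.8% of all windows.

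Hspa8, the constitutive heat shock cognate chaperone (chromosome 9, 40800984 to 40810087), rose from 145 and 142 CPM to 307 and 293 CPM (log2 1.06, SE 0.110, adjusted p = 0.00779), and lost its call without Mut replicate 1 (adjusted p = 0.0763). It was the only one of the 18 listed heat shock genes that passed (0.224% of all genes). Inducible Hspa1a was at 172 and 204 CPM in WT and 308 and 292 CPM in Mut (log2 0.67, adjusted p = 0.0959). The co-chaperone Dnajb1 was at 328 and 295 CPM in WT and 424 and 425 CPM in Mut (log2 0.45, adjusted p = 0.203; -0.13 with spike-in scaling), while Hsp90aa1 (0.056), Hspd1 (0.12) and Hsph1 (-0.031) overlapped between the groups. Both Mut libraries lay above both WT libraries in 7 of the 18 (19.7% of all genes) and below in 1 (19.6% of all genes).

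Further genes that rose came from several groups. Gas5 (chromosome 1, 161034422 to 161038539), a noncoding RNA whose introns hold small nucleolar RNAs, was at 203 and 224 CPM in the WT libraries against 573 and 645 CPM in the Mut libraries (log2 1.51, SE 0.111, adjusted p = 0.00151), a 2.86-fold difference. Among other hosts of small nucleolar RNAs, Snhg1 (0.59), Snhg8 (0.56) and Snhg5 (0.30) had both Mut libraries above both WT libraries, and Snhg3 (-0.10), Snhg6 (-0.14) and Snhg12 (0.076) overlapped. Lars2, the mitochondrial leucyl-tRNA synthetase, was at 2204 and 2389 CPM in WT and 3464 and 3395 CPM in Mut (log2 0.58, SE 0.0505, adjusted p = 0.00340; -0.010 with spike-in scaling). Lars2 was listed with RNA precursors and noncoding RNAs, and whether all reads of its row come from the synthetase transcript was not tested. The row of the ribosomal RNA precursor, Rn45s, held 1.06% ± 0.0594 of the WT gene counts and 0.946% ± 0.104 of those of Mut (SD, n = 2). Tnfrsf14, the receptor HVEM (chromosome 4, 154921933 to 154928563), was at 5.65 and 6.14 CPM in WT and 35.2 and 28.9 CPM in Mut (log2 2.44, SE 0.327, adjusted p = 0.0307). Rgs1, a regulator of G protein signalling (chromosome 1, 144242296 to 144249242), was at 251 and 264 CPM in WT and 526 and 470.3 CPM in Mut (log2 0.95, SE 0.104, adjusted p = 0.0111). Scin, the actin-severing protein scinderin (chromosome 12, 40059769 to 40134228), was at 36.6 and 41.2 CPM in WT and 98.8 and 103 CPM in Mut (log2 1.38, SE 0.198, adjusted p = 0.0461). Alox15, a lipoxygenase of fatty acids (chromosome 11, 70344152 to 70352031), was at 62.7 and 54.7 CPM in WT and 128 and 162 CPM in Mut (log2 1.30, SE 0.161, adjusted p = 0.0210). It was the only called gene of 16 tested on a list of genes that may differ between 129 and B6 mice, and whether the pools differ in strain there was not tested. H3f3b, a gene of the replacement histone H3.3, was at 1769 and 1770 CPM in WT and 2271 and 2223 CPM in Mut (log2 0.34, SE 0.0445, adjusted p = 0.0263; -0.24 with spike-in scaling).

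These calls differed in how they stood up when a library was left out. Gas5 and Lars2 kept theirs without each library. Rgs1 lost its call without Mut replicate 1 (adjusted p = 0.0927), H3f3b without WT replicate 1 (adjusted p = 0.0841), WT replicate 2 (0.0657), Mut replicate 1 (0.220) or Mut replicate 2 (0.151), and Alox15 without WT replicate 2 (adjusted p = 0.0772), Mut replicate 2 (0.102), KO replicate 1 (0.0565) or the KO library with no number (0.0578). Tnfrsf14 and Scin lost theirs whichever of the 6 libraries was left out, with adjusted p values from 0.0578 to 0.174 and from 0.102 to 0.24. With the spread from all 12 libraries Gas5, Lars2, Rgs1 and Hspa8 kept their calls.

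Beside the granule genes, Gzma, Kdelr2 and Lta4h fell. Gzma, the granzyme A protease of cytotoxic lymphocytes (chromosome 13, 113093825 to 113100981), was at 49.6 and 53.6 CPM in the WT libraries against 4.81 and 1.56 CPM in the Mut libraries (log2 -3.99, SE 0.494, adjusted p = 0.0210), a 15.9-fold difference. Without Mut replicate 1 the difference was -5.03 on the log2 scale, and the call was lost with the spread of the WT and Mut libraries alone (adjusted p = 0.121) or of all 12 libraries (0.395). It was the only called gene of the 22 T and NK cell genes tested (0.224% of all genes). Perforin, from Prf1, was at 10.2 and 14.6 CPM in WT and 2.68 and 0.125 CPM in Mut (log2 -3.11, adjusted p = 0.415). The NK receptor gene Ncr1 was at 24.8 and 39.4 CPM in WT and 12.5 and 14.4 CPM in Mut (log2 -1.25, adjusted p = 0.305). Il2rb, a chain of the interleukin 2 and 15 receptors, was at 85.6 and 124 CPM in WT and 60.9 and 38.3 CPM in Mut (log2 -1.08, adjusted p = 0.253). Ccl5, a chemokine that the same cells store, was at 55.1 and 53.9 CPM in WT and 30.3 and 29.6 CPM in Mut (log2 -0.86, adjusted p = 0.221). These effector genes were lower in both Mut libraries, while the T cell receptor components Cd3e (-0.39) and Cd3d (-0.29) overlapped and Gzmb (0.30) had both Mut libraries above. In all, 11 of the 22 lay below (19.6% of all genes) and 1 above (19.7% of all genes) without overlap, the median was -0.67, and the levels summed to 1746 and 1858 CPM in the WT libraries and 1451 and 1323 CPM in the Mut libraries. The receptor constant region genes Trac, Trbc1 and Trbc2 and Cd8a did not pass the filter on low counts. At an unadjusted p below 0.05, 7 of the 22 were lower (4.8% of all genes) and none higher, and 4 were lower without WT replicate 2. How far the number of such lymphocytes in each pool entered the level of Gzma was not tested.

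Kdelr2, which returns chaperones to the endoplasmic reticulum, was at 189.8 and 228 CPM in WT and 102 and 101 CPM in Mut (log2 -1.04, SE 0.140, adjusted p = 0.0307). Lta4h, the enzyme that makes leukotriene B4, was at 1203 and 1188 CPM in WT and 877 and 849.7 CPM in Mut (log2 -0.47, SE 0.0594, adjusted p = 0.0235). Kdelr2 lost its call without WT replicate 2 (adjusted p = 0.130), Mut replicate 1 (0.204), Mut replicate 2 (0.187), KO replicate 1 (0.0806) or the KO library with no number (0.0823), and Lta4h without WT replicate 1 (adjusted p = 0.0919), WT replicate 2 (0.0796), Mut replicate 1 (0.167) or Mut replicate 2 (0.187). Of the 27 listed genes of endoplasmic reticulum stress and folding, none was called, and both Mut libraries lay below both WT libraries in 11 (19.6% of all genes) and above in 5 (19.7% of all genes).

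Among 36 gene lists, those without any call included several that bear on stem cells, inflammation and growth. The 31 inflammatory and NF-kB genes held 10 that were higher (4.94% of all genes) and 1 lower (4.8%) at an unadjusted p below 0.05, with the chemokines Ccl3 at 269 and 334 CPM in WT and 442 and 488 CPM in Mut (log2 0.63, adjusted p = 0.164) and Cxcl2 at 64.6 and 63.2 CPM in WT and 109.6 and 105 CPM in Mut (log2 0.75, adjusted p = 0.167). Il6 was at 21.6 and 25.3 CPM in WT and 80.9 and 44.1 CPM in Mut (log2 1.42, adjusted p = 0.212), with a wide gap between the Mut libraries. The feedback inhibitor Tnfaip3 was at 292 and 293 CPM in WT and 419 and 456 CPM in Mut (log2 0.58, adjusted p = 0.108; -0.0086 with spike-in scaling). Tnf (0.12), Il1b (0.076) and Nfkbia (0.13) overlapped. With spike-in scaling 2 of the 31 were higher and 8 lower at that p. Over all genes 4822 of 12947 then passed that p in either direction, with a median of -0.59. Of 24 blood stem cell genes 8 lay above (19.7% of all genes) and 2 below (19.6% of all genes) without overlap, including Angpt1 at 58.9 and 60.6 CPM in WT and 86.3 and 91.8 CPM in Mut (log2 0.58, adjusted p = 0.407; -0.011 with spike-in scaling), a ligand of the stem cell receptor Tek. Of the 16 tested genes of the stem and progenitor gates 9 lay above (19.7% of all genes) and 2 below (19.6% of all genes), with Kit at 223 and 170.1 CPM in WT and 257 and 239.8 CPM in Mut (log2 0.34, adjusted p = 0.511; -0.24 with spike-in scaling) and Fcgr3, the Fc receptor of granulocyte-monocyte progenitors, at 162 and 162 CPM in WT and 111 and 119 CPM in Mut (log2 -0.49, adjusted p = 0.426).

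The 74 nuclear genes of oxidative phosphorylation differed little one by one, by -0.075 at the median, but 32 lay below (19.6% of all genes) and 8 above (19.7% of all genes) without overlap. Of 20 glycolytic genes 8 lay below (19.6% of all genes) and 4 above (19.7% of all genes) (median -0.15). Genes of DNA replication (36 genes, median 0.077), mitosis (35, median 0.17), cytosolic ribosomal proteins (78, median 0.041) and the interferon response (52, median 0.042) held no call. Neither did the DNA methylation machinery (23, median 0.0021) or the partners of Tet2 and chromatin regulators (31, median 0.11). These values are descriptions of lists that were not tested as sets.

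**Figure D3:**
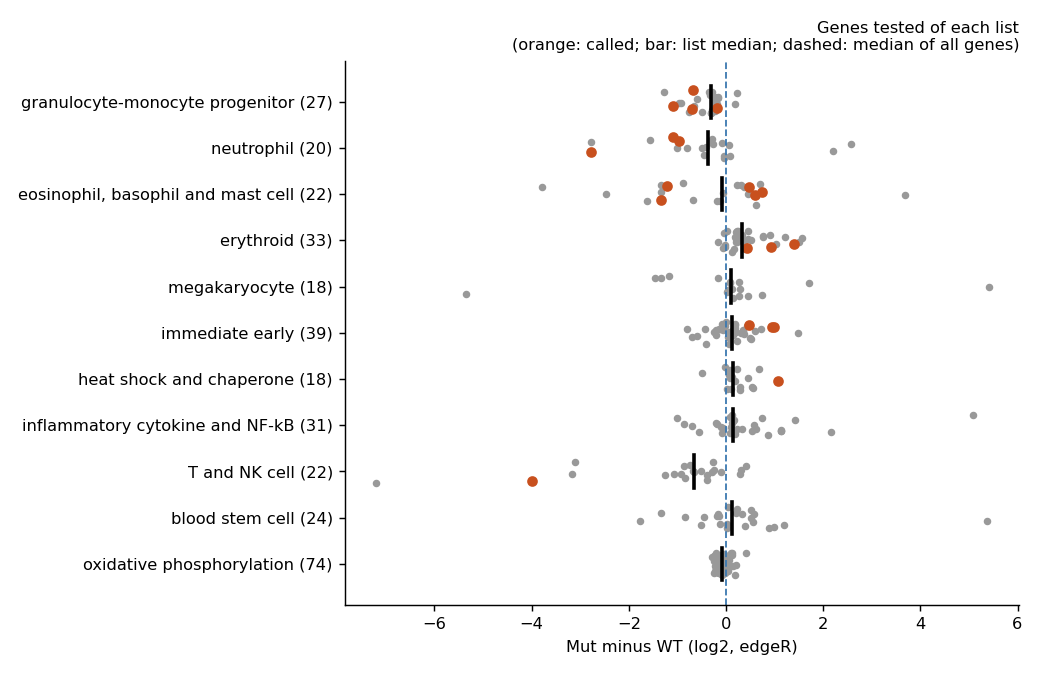
Difference between Mut and WT (log2, edgeR) of each gene tested in 11 of the lists, with the number tested in brackets, called genes in orange, a black bar at the median of the list and a dashed line at the median of all genes. The granulocyte-monocyte progenitor and neutrophil medians lie at -0.30 and -0.37 and the erythroid median at 0.32, while eosinophil and basophil genes lie on both sides. With spike-in scaling the median of all genes lies at -0.59, and 16 genes are called higher and 2281 lower. More erythroid and early response genes are then lower than higher at an unadjusted p below 0.05, as are the called genes of the whole set.

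Set beside the knockout, the Mut libraries differed from KO in 31 genes (0.239% of 12947 tested), 20 higher (0.154%) and 11 lower in Mut (0.085%), and in 1228 (9.48%) at an unadjusted p below 0.05. This comparison shares the Mut libraries with the one above, so the values are given side by side. Of the 29 genes called against WT, 15 were also called against KO, 9 higher and 6 lower in Mut in both. Between KO and WT 47 of the 12947 genes were called, 14 of the 29 among them, with the WT libraries shared. Of the further genes that rose, Gas5, Alox15 and Tnfrsf14 were also called higher in KO than in WT, and Lars2 was called lower. Rgs1, Scin and H3f3b were not called between KO and WT. The basophil genes stood highest in Mut. Prss34 was at 3040 and 2796 CPM in the KO libraries (log2 1.24, SE 0.0502, adjusted p = 6.52e-05). Mcpt8 was at 1481 and 1322 CPM (log2 1.18, SE 0.0680, adjusted p = 0.000234). Fcer1a was at 177 and 197 CPM (log2 1.54, SE 0.101, adjusted p = 0.000508). For each of them KO lay below WT and Mut above it. Of the early response genes, Egr1 was at 459 and 396 CPM in KO (log2 0.86, SE 0.0935, adjusted p = 0.0114). Klf6 was at 289 and 291 CPM (log2 0.95, SE 0.0945, adjusted p = 0.00694). Fos was at 3085 and 3185 CPM (log2 0.44, SE 0.0392, adjusted p = 0.00435; -0.22 with spike-in scaling). Their KO levels lay close to those of WT. Of the neutrophil genes, S100a8 was at 1385 and 1409 CPM (log2 -0.99, SE 0.0573, adjusted p = 0.000234). S100a9 was at 596 and 597 CPM in KO (log2 -1.32, SE 0.0940, adjusted p = 0.000888). Camp was at 37.8 and 45.2 CPM (log2 -2.46, SE 0.272, adjusted p = 0.0119). Lyz2, not called between Mut and WT, was at 475 and 463 CPM in KO, below its WT level.

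Elane, Prtn3 and Mpo were not called between Mut and KO: Elane was at 8208 and 8752 CPM in KO (log2 -0.19, SE 0.0419, adjusted p = 0.200), Prtn3 at 3443 and 3665 CPM and Mpo at 28543 and 28676 CPM. Of the red cell genes, Slc4a1 at 228 and 197 CPM (log2 -0.44, SE 0.152, adjusted p = 0.424) and Car2 at 1881 and 1968 CPM (log2 -0.30, SE 0.0557, adjusted p = 0.126) stood above the Mut level in KO. Tfrc stood below it, at 217 and 273 CPM (log2 0.37, SE 0.129, adjusted p = 0.424). None of these 3 was called. Of the 33 erythroid genes tested, 2 were called lower in Mut than in KO (0.085% of all genes) and none higher (0.154%). The median of the list was -0.42 for Mut minus KO. It was 0.73 for KO minus WT and 0.32 for Mut minus WT. Epx was at 996 and 939 CPM in KO (log2 -0.75, SE 0.0639, adjusted p = 0.00306). Prg2 was at 4664 and 4283 CPM (log2 -0.57, SE 0.0647, adjusted p = 0.0132). Both lay between WT and Mut. Of the genes called against KO and not against WT, Jchain, the joining chain of secreted antibodies, was at 11.6 and 8.56 CPM in KO and 166 and 157 CPM in Mut against 78.2 and 70.8 CPM in WT (log2 3.999, SE 0.224, adjusted p = 0.000234). Naip5, an inflammasome sensor with near-identical neighbours, was at 1.46 and 2.07 CPM in KO and 24.9 and 21.3 CPM in Mut against 14.7 and 13.2 CPM in WT (log2 3.71, SE 0.444, adjusted p = 0.0158). Ear1 stood highest in KO, at 249.6 and 249 CPM (log2 -1.26, SE 0.116, adjusted p = 0.00468). Neat1, a long noncoding RNA, likewise was at 501 and 409 CPM (log2 -1.28, SE 0.146, adjusted p = 0.0136). Of the 21 named differences from KO, 8 stayed called whichever of the 4 libraries was left out (Epx, Fcer1a, Jchain, Lars2, Mcpt8, Prss34, S100a8 and S100a9), and the count of all calls fell from 31 to between 10 and 12.

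The Mut effect was then compared with that in LSK cells, in a fit of all 12 libraries with 14033 genes tested. It differed in 355 genes (2.53%), 142 with a more positive (1.01%) and 213 with a more negative effect in MPP (1.52%), and in 2390 (17%) at an unadjusted p below 0.05. The LSK WT libraries stand apart from the other libraries, with 12470 and 12614 genes detected against 13333 to 14264 in the others, and Rn45s took 3.67% ± 0.0354 of their gene counts against 1.04% ± 0.0802 in LSK Mut (SD, n = 2). Their part in the LSK effects was not tested. Without LSK WT replicate 1 the count was 1297 and without LSK WT replicate 2 it was 1425. Of the 29 genes called in MPP, the effect differed for 14, 7 in each direction. For Elane, Mpo and Lta4h the direction was opposite in the 2 populations. Elane was at 121 and 177 CPM in LSK WT and 467 and 467 CPM in LSK Mut (difference of effects -2.34, SE 0.188, adjusted p = 0.000137). Mpo was at 1522 and 1638 CPM in LSK WT and 4662 and 4333 CPM in LSK Mut (difference -1.69, SE 0.0669, adjusted p = 3.17e-07). Lta4h was at 174 and 175 CPM in LSK WT and 278 and 259 CPM in LSK Mut (difference -1.09, SE 0.128, adjusted p = 0.00286). All 3 lay higher in LSK Mut than in LSK WT and lower in MPP Mut than in MPP WT. Prtn3 did likewise, at 228 and 368 CPM in LSK WT and 507 and 515 CPM in LSK Mut (difference -1.46, SE 0.242, adjusted p = 0.0136), but lost the call without MPP WT replicate 2 or MPP Mut replicate 2 (highest adjusted p = 0.0562). Prg2 was at 0 and 0.159 CPM in LSK WT and 6.94 and 10.0 CPM in LSK Mut, so that it was nearly missing in LSK WT, and Prss34 was at 0 counts in both LSK WT libraries and at 17.5 and 15.8 CPM in LSK Mut.

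Egr1 and Fos had a more positive effect in MPP. Egr1 was at 861 and 985 CPM in LSK WT and 735 and 673 CPM in LSK Mut (difference 1.33, SE 0.149, adjusted p = 0.00212; -0.30 with spike-in scaling). Fos was at 5156 and 4916 CPM in LSK WT and 4911 and 4778 CPM in LSK Mut (difference 0.54, SE 0.0719, adjusted p = 0.00484; -1.13 with spike-in scaling). Tfrc, higher in MPP Mut, was at 99.0 and 170.1 CPM in LSK WT and 60.2 and 32.7 CPM in LSK Mut (difference 2.46, SE 0.411, adjusted p = 0.0143; highest adjusted p = 0.0545, without MPP WT replicate 2). Lars2 was at 17048 and 18262 CPM in LSK WT and 4436 and 4104 CPM in LSK Mut (difference 2.63, SE 0.0819, adjusted p = 4.59e-08). Hspa8 (88.9 and 104 CPM in LSK WT and 267 and 234 CPM in LSK Mut; difference -0.31, SE 0.192, adjusted p = 0.449) and Gas5 (589 and 469 CPM in LSK WT and 936 and 985 CPM in LSK Mut; difference 0.66, SE 0.186, adjusted p = 0.0990) were higher in Mut in both populations, and the difference of their effects did not pass the threshold. S100a8 (40.5 and 85.1 CPM in LSK WT and 19.5 and 27.0 CPM in LSK Mut; difference 0.48, SE 0.439, adjusted p = 0.653) and S100a9 (38.4 and 68.6 CPM in LSK WT and 15.5 and 18.8 CPM in LSK Mut; difference 0.55, SE 0.307, adjusted p = 0.402) were lower in Mut in both. The genes with the largest called differences of effects were mostly at or near 0 in a whole group: Sdc3, Tbrg3 and Sstr2 had 0 counts in both MPP WT libraries, and Arhgef11, Cd14, Ehd3, Mapk13 and Syt3 in both LSK WT libraries.

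**Figure D4:**
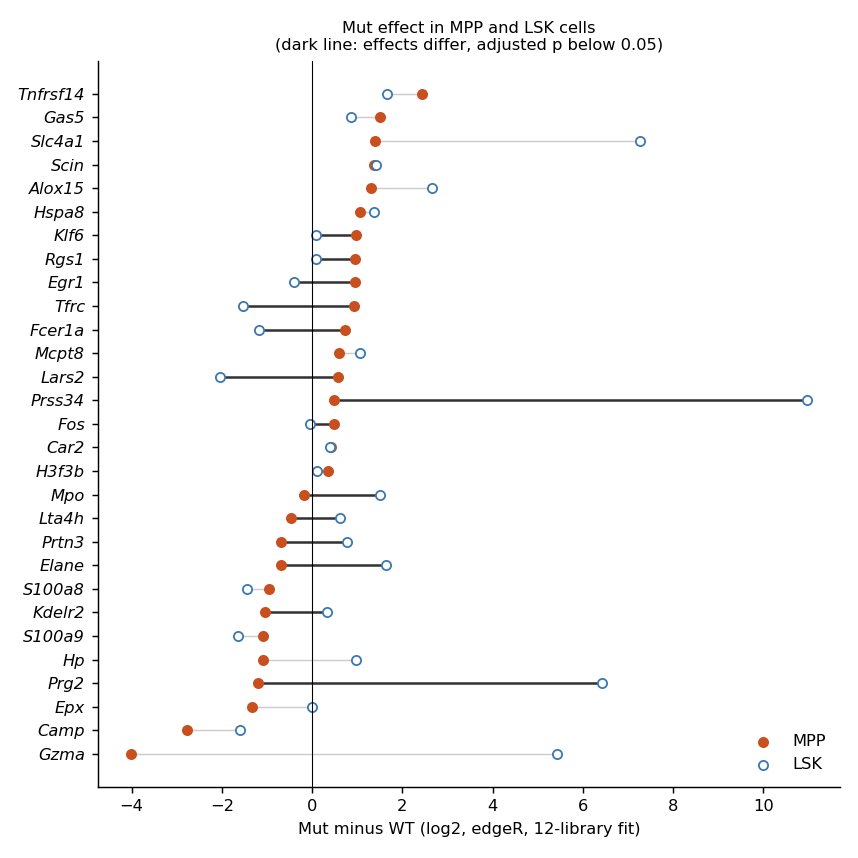
Mut effect (Mut minus WT, log2, from the fit of 12 libraries) of the 29 genes called in MPP cells, with MPP as filled orange points and LSK as open blue points; dark lines mark the 14 genes whose effects differ at an adjusted p below 0.05. Elane, Prtn3, Mpo and Lta4h lie below 0 in MPP and above 0 in LSK, while Hspa8 and Gas5 lie above 0 in both; LSK values of Prss34, Prg2, Slc4a1 and Gzma rest on LSK WT libraries at 0 or nearly 0, and Epx is at 0 in all LSK libraries drawn. With spike-in scaling Car2, Fos, H3f3b, Lars2 and Prss34 change sign in MPP, and so do the differences between MPP and LSK of Egr1, Fos, Klf6 and Rgs1.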

How the data were processed

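RNA-seq libraries of MPP and LSK cells were analysed from the deposited count tables, which the authors made as raw read counts per gene symbol, whole numbers with no scaling, per the file headers and values. The submitters' processing notes name mm10, Trim Galore 0.4.1, TopHat2 2.0.13, HTSeq 0.6.1 and Cufflinks; the strand setting and annotation are not given in the sources used here. Spike-in rows were left out of library sizes and tests. The MPP table holds a KO column whose name matches no title, which was used as a KO library with no number.

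Genes were filtered with filterByExpr (minimum count 10, minimum total 15), scaled by TMM and tested with edgeR 4.0.16 in R 4.3.3 (glmQLFTest, two-sided, adjusted by Benjamini-Hochberg, called at an adjusted p below 0.05). The 6 MPP libraries shared the spread (3 residual degrees of freedom), and the difference of Mut effects used all 12 (6 residual degrees of freedom). The pipeline was tested on simulated data. SE is the difference divided by the root of the F statistic, ± is the SD of 2 libraries, and floors of 3 counts cover counting error only. Named genes are up to 12 called genes per direction by fold, filled by smallest p. Their libraries do not overlap and the higher group has a mean of at least 100 counts. Up to 4 called members per list, Tet1 to Tet3, and up to 6 genes per direction for the other tests were added. The other uncalled genes named, such as Kit and Fcgr3 of the gate list, were chosen after their values were seen. Not all genes of the gate list are named. Members and the 36 lists were chosen with earlier results of these data known. Alternatives were RLE factors, spike-in scaling, DESeq2 1.42.0, other filters, other sets of libraries for the spread, a replicate block, a 1.5-fold test and each library left out. Positions are from GENCODE M21, promoter windows from RefSeq (GRCm38.p6); motifs were chosen for the factors known in these lineages.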

Additional observations from a re-analysis of the deposited data

Results flagged for a closer look

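The effect of Mut differed between MPP and LSK cells, by the test of the difference itself, in 14 of the 29 genes called in MPP (edgeR, 12 libraries, adjusted over 14033 genes). It was more positive in MPP for Egr1 (1.33, SE 0.149, adjusted p = 0.00212), Fcer1a (1.92, SE 0.441, adjusted p = 0.0463), Fos (0.54, SE 0.0719, adjusted p = 0.00484), Klf6 (0.89, SE 0.203, adjusted p = 0.0457), Lars2 (2.63, SE 0.0819, adjusted p = 4.59e-08), Rgs1 (0.86, SE 0.193, adjusted p = 0.0421) and Tfrc (2.46, SE 0.411, adjusted p = 0.0143). It was more negative for Elane (-2.34, SE 0.188, adjusted p = 0.000137), Kdelr2 (-1.36, SE 0.272, adjusted p = 0.0270), Lta4h (-1.09, SE 0.128, adjusted p = 0.00286), Mpo (-1.69, SE 0.0669, adjusted p = 3.17e-07), Prg2 (-7.63, SE 0.422, adjusted p = 7.44e-06), Prss34 (-10.48, SE 0.714, adjusted p = 8.71e-05) and Prtn3 (-1.46, SE 0.242, adjusted p = 0.0136). Prg2 had 2 counts and Prss34 none in the LSK WT libraries, so these fitted values depend on the prior count and are no bounds. With spike-in scaling the differences of Egr1, Fos, Klf6 and Rgs1 change sign. Of the 14 differences 8 stayed called whichever of the 8 libraries was left out, and Fcer1a, Kdelr2, Klf6, Rgs1, Prtn3 and Tfrc did not, with highest adjusted p values of 0.156, 0.143, 0.161, 0.151, 0.0562 and 0.0545.

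Spike-in RNAs, which were not tested as genes and entered only the spike-in scaling, took 5.02% of the counts in MPP Mut and 3.35% in MPP WT.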

How the results depend on the processing

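For Mut against WT in MPP, 29 genes were called. The count was 2297 with spike-in scaling, 313 with DESeq2, 217 without the filter, 17 with the spread of the WT and Mut libraries alone, 13 with that of all 12 libraries and 5 in the test against a 1.5-fold difference, and ranged from 15 to 28 with a Mut or WT library left out. For Mut against KO (31) it was 3254, 297, 195, 21 and 8 in the same order, with 14 for all 12 libraries, an alternative chosen after seeing the data, and ranged from 10 to 12. For the difference between MPP and LSK (355) it was 5428 with spike-in scaling, 1235 with DESeq2, 662 without the filter, 54 with the libraries compared alone and 56 in the 1.5-fold test, and ranged from 88 to 1425, the highest without LSK WT replicate 2. With RLE factors and with a mean of at least 50 counts, 29 of the 29 genes kept their call, as they did with DESeq2 and without the filter. The spread from all 12 libraries kept 9 and spike-in scaling 16.

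The labels do not pair libraries of different genotypes by replicate number. The deviations of MPP WT and Mut libraries of the same number correlated at -0.03 across genes. Whether libraries of the same number shared a preparation was not tested. With a replicate block 15 genes were called for Mut against WT, where 14 of the 29 lost their call, and 160 for the difference between MPP and LSK. For Mut against KO no paired analysis was possible because the KO column without a number pairs with no library.

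Spike-in scaling turned the sign of Angpt1 (-0.011), Aqp1 (-0.071), B2m (-0.30), Car2 (-0.17), Ccl4 (-0.041), Cpa3 (-0.22), Dnajb1 (-0.13), Fech (-0.12), Fos (-0.11), Fosb (-0.080), H3f3b (-0.24), Jun (-0.095), Kit (-0.24), Klf1 (-0.22), Lars2 (-0.010), Ms4a2 (-0.15), Ppp1r15a (-0.16), Prss34 (-0.11), Tet1 (-0.29), Tet2 (-0.41) and Tnfaip3 (-0.0086) for Mut against WT, of Fos against KO (-0.22), and of the MPP and LSK difference for Egr1 (-0.30), Fos (-1.13), Klf6 (-0.75), Rgs1 (-0.78). Its median over all genes was -0.59, and the make-up of the spike-ins differed between the groups. Tet2 was at -0.025 without WT replicate 2 and 0.40 without WT replicate 1. The cause of these changes was not tested. A count of 0 allows up to 0.128 to 0.283 CPM in the WT and Mut libraries, which limits what can be said of genes near that level.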
